A study of Mus musculus with 6 samples.

Results

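The 10 genes Mcpt8, Prss34, Cpa3, Fcer1a, Ms4a2, Cd200r3, Grm6, Hdc, Il4 and Cyp11a1 encode proteases, receptors and mediators of basophils and mast cells. They were selected on their measured difference between CD27 low MOP and CD27 high MODP in these libraries, and were taken by symbol from the read-count table, which held all 10 among 22271 genes, and all 10 were among the 12850 genes that passed the filter on low counts. For that reason their differences between the populations are given as a description of the 10 genes, with no test.

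Both populations came from bone marrow of C57BL/6JRj mice by fluorescence-activated sorting. The titles mark every library WT, and no treatment or allele is given; nor are age, sex or further sort markers. MOP is the CD27-low and MODP the CD27-high progenitor population, and the title of the series places a progenitor of macrophages and osteoclasts downstream of one that also gives rise to dendritic cells. Each population had 3 RNA libraries of 10701425 to 15892640 counts. The sources used here do not say how many animals a library came from, so errors and p-values measure the spread between libraries, which may be technical. The libraries carry a number in the column names of the table, 1, 2 or 3 in each population, and libraries of the same number are called a pair below. The sample titles number the third pair as the first.

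Basophils and mast cells are rare granulocytes that carry IgE on the high-affinity receptor FcεRI and release histamine, leukotrienes, cytokines and granule proteases when that IgE is cross-linked by antigen. FcεRI consists of an IgE-binding α chain (Fcer1a), a signal-amplifying β chain (Ms4a2) and a γ chain shared with other Fc receptors (Fcer1g). Both cell types arise from bone marrow progenitors under GATA factors and IL-3. In the mouse, basophils carry the protease MCPT8, whereas mature tissue mast cells carry a different set of chymases and tryptases.

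The level of Cd27 followed the labels, which name no other marker. Cd27 lay between 3.52 and 4.56 CPM (counts scaled to a common library size with TMM factors) in MOP libraries and between 35.3 and 38.9 CPM in MODP libraries. The stem cell factor receptor gene Kit lay between 114 and 151 CPM in MOP and between 316 and 377 CPM in MODP. Csf1r, the M-CSF receptor gene, lay between 471 and 563 CPM in MOP and between 262 and 345 CPM in MODP. Pair 2 stood apart in both populations by mature neutrophil genes. The 10 neutrophil markers summed to 2745.6, 11391 and 4854.7 CPM in MOP pairs 1, 2 and 3 and to 3436, 16077 and 2082 CPM in MODP pairs 1, 2 and 3, so results are also given without pair 2. In these bulk libraries, fewer cells of a type and less RNA per cell cannot be told apart.

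The promoters of the genes were examined because 9 of the 10 genes lay far apart between the populations and because GATA factors are known regulators of this lineage. All 10 genes matched the RefSeq promoter table of build GRCm38.p6, with 12 annotated starts. In the 250 bases before the start, a GATA hexamer (AGATAA, or the form AGATAG, or TGATAA, or the form TGATAG, on either strand and with overlaps allowed) occurred in 9 of the 12 promoters, belonging to 9 genes, against 26.5% of all 32851 promoters in the table. The matches lay 31 bases before the start in Prss34, 46 in Cpa3 and 92 in Fcer1a. Ms4a2 had matches at 224, 37 and 11 bases, and Cd200r3 at 115, 39 and 33 bases. Il4 had a match at 80 bases, Grm6 had matches at 133 and 114, Hdc at 221 and Cyp11a1 at 231. Mcpt8 had none in this window. Hdc thus carried a match while its populations overlapped, whereas Mcpt8 carried none while higher in every MOP library. A link between the matches and the difference between the populations was not tested. A match describes the letters and is no evidence of binding. The RUNX hexamer TGTGGT occurred in 3 of the 12 (14.0% of all promoters), the E-box CANCTG in 8 of the 12 (44.8%) and the STAT motif TTCNNNGAA in 0 of the 12 (7.02%). For comparison, 5 of the promoters follow in the direction of transcription, 4 with matches within 50 bases of the start and Mcpt8 without any; capitals mark the GATA hexamers.
Prss34 (chr17:25298144-25298393, plus strand): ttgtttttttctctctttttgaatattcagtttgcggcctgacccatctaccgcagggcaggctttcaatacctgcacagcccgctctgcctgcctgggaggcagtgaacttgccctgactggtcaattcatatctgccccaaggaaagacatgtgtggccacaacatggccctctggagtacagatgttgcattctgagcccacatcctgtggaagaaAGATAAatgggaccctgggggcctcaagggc
Cpa3 (chr3:20242182-20242431, minus strand): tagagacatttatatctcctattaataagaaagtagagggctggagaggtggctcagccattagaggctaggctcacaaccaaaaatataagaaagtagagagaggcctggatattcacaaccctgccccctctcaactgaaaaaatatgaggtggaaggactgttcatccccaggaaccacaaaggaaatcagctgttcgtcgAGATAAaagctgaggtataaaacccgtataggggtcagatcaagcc
Ms4a2 (chr19:11623720-11623969, minus strand): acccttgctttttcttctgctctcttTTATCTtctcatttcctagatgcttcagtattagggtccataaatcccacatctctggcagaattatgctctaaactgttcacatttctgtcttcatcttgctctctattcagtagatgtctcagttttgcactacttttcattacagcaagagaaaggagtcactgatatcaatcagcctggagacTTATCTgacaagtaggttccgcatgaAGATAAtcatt
Cd200r3 (chr16:44943428-44943677, plus strand): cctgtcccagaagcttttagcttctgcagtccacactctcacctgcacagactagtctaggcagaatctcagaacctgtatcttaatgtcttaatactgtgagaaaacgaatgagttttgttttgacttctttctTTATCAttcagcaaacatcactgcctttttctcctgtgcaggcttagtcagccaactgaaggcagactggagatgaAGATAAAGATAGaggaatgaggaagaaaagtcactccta
Mcpt8 (chr14:56085198-56085447, minus strand): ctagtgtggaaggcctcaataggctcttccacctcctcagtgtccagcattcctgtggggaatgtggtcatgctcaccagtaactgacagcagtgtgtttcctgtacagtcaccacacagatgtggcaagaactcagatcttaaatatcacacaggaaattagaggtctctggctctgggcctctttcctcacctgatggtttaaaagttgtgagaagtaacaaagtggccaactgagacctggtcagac

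Of the 10 genes, 9 were higher in every MOP library than in any MODP library, by 3.66-fold for Cpa3 to 20.7-fold for Cd200r3, whereas Hdc lay at nearly the same level in both. Such a lack of overlap with MOP higher held for 23.8% of all 12850 tested genes. The median log2 fold change of the 10 genes was 3.25, against -0.01 for all tested genes. By the fitted fold change 9 genes were at least 2-fold and 8 at least 4-fold higher in MOP, which held for 4.71% and 0.957% of the tested genes. Because the genes were chosen with this contrast known, nothing is read from these counts.

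**Figure D1:**
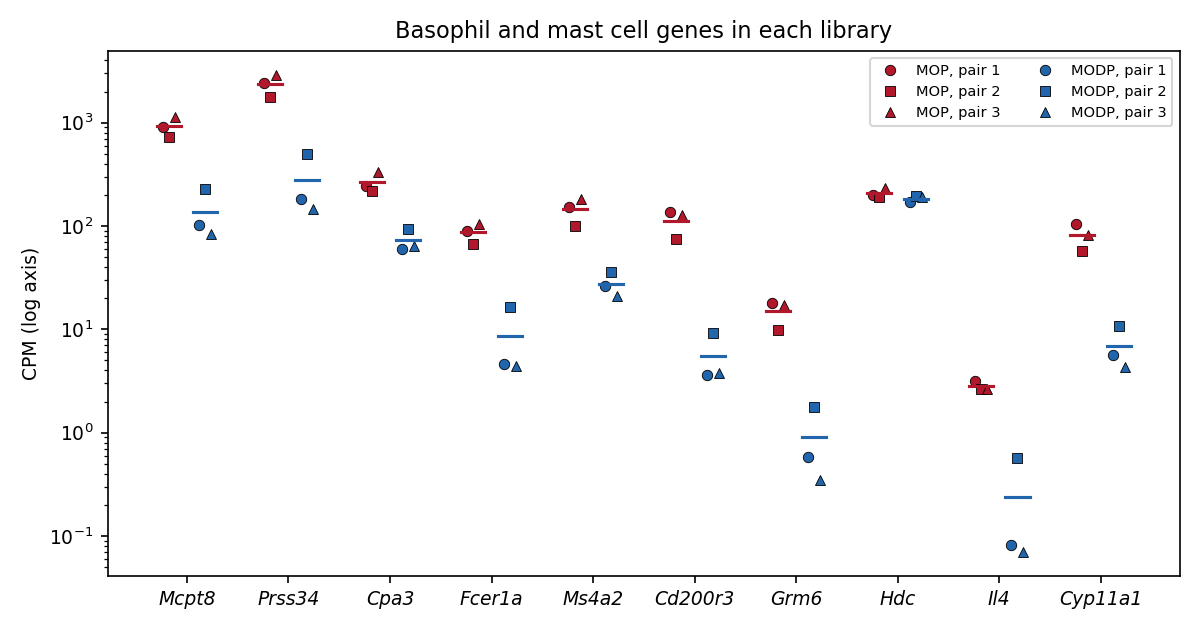
CPM on a log axis for each of the 10 genes, with 3 MOP libraries to the left of 3 MODP libraries, the symbol giving the pair and the bar the mean of each population. Hdc is the one gene whose populations overlap; for each of the 10 genes the highest MODP library and the lowest MOP library are those of pair 2.

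Per kilobase of exon, the granule proteases were the most abundant of the genes in both populations. Mcpt8, which encodes the basophil serine protease MCPT8, stood at 902, 723 and 1141 CPM in MOP pairs 1, 2 and 3 and at 102, 228 and 83.2 CPM in MODP pairs 1, 2 and 3. The fitted log2 fold change was 2.74 ± 0.50 (SE). Prss34, a tryptase-like serine protease gene of basophils, stood at 2419.5, 1789 and 2919.6 CPM in MOP and at 184, 503 and 146 CPM in MODP, with a fitted log2 difference of 3.10 ± 0.62 (SE). For both genes the populations did not overlap, and MODP pair 2 was at least 2 times the level of the other MODP libraries. Cpa3, the carboxypeptidase A3 of mast cell and basophil granules, stood at 246, 218 and 329.6 CPM in MOP and at 59.8, 93.1 and 64.2 CPM in MODP. Its log2 fold change of 1.87 ± 0.25 (SE) was the smallest after that of Hdc.

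The receptor genes were lower in level than the proteases. Fcer1a stood at 90.3, 67.0 and 105 CPM in MOP and at 4.60, 16.6 and 4.42 CPM in MODP, a log2 fold change of 3.40 ± 0.60 (SE). Ms4a2 stood at 151, 99.7 and 183 CPM in MOP and at 26.5, 35.7 and 21.1 CPM in MODP, a log2 fold change of 2.39 ± 0.32 (SE). Both IgE receptor chains were thus higher in each MOP library, the α chain by 10.5-fold and the β chain by 5.24-fold. Without MODP pair 2 the Fcer1a fold was 19.4, and without pair 2 of both populations it was 21.7. Cd200r3, an activating relative of the CD200 receptor on basophils and mast cells, stood at 135.6, 74.6 and 128 CPM in MOP and at 3.61, 9.30 and 3.79 CPM in MODP. Its log2 fold change of 4.37 ± 0.48 (SE) ranked 17th of 12850 tested genes. Grm6, a metabotropic glutamate receptor known from retinal bipolar cells, stood at 17.9, 9.91 and 17.2 CPM in MOP and at 0.575, 1.78 and 0.351 CPM in MODP. Grm6 rested on 31 reads in all MODP libraries together, and its log2 fold change was 4.11 ± 0.53 (SE). An antisense gene, Gm12660, overlaps an exon of Grm6 and had at most 6 reads in a library, and without a known strand setting their reads cannot be told apart.

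The mediator genes split. Hdc, the histidine decarboxylase that makes histamine, stood at 199, 190 and 231 CPM in MOP and at 169, 195 and 189 CPM in MODP. The populations overlapped, and its log2 fold change was 0.17 ± 0.09 (SE). Il4, a cytokine that basophils and mast cells release, had 43, 41 and 35 reads in MOP and 1, 6 and 1 reads in MODP. Over all libraries its level in MOP was 12.996 times that in MODP, with an exact 95% counting interval of 6.39 to 30.8 that covers counting error only. Cyp11a1, which encodes the enzyme that cleaves the cholesterol side chain at the start of steroid synthesis, stood at 104, 57.7 and 81.7 CPM in MOP and at 5.58, 10.7 and 4.35 CPM in MODP. Its log2 fold change was 3.59 ± 0.41 (SE).

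Per kilobase of exon, the order of the levels in MOP was led by Prss34 at 1948 ± 464 and Mcpt8 at 924 ± 210 CPM per kb (SD, n = 3). Cpa3 at 174 ± 38.3, Fcer1a at 87.7 ± 19.3 and Ms4a2 at 51.5 ± 15.0 CPM per kb followed. Hdc at 32.4 ± 3.40, Cd200r3 at 18.8 ± 5.56 and Cyp11a1 at 16.9 ± 4.81 CPM per kb came next, of which Cd200r3 and Cyp11a1 differed by less than their spread. Grm6 at 2.77 ± 0.819 and Il4 at 2.29 ± 0.248 CPM per kb were lowest and also lay within their spread of each other. In MODP, Prss34 averaged 228 ± 161 and Mcpt8 138 ± 79.1 CPM per kb, and Hdc at 28.9 ± 2.16 CPM per kb exceeded Fcer1a at 8.56 ± 7.01 and Ms4a2 at 9.87 ± 2.63 CPM per kb. The 10 genes together took 0.420%, 0.318% and 0.509% of all counts in MOP pairs 1, 2 and 3 and 0.0567%, 0.109% and 0.0532% in MODP pairs 1, 2 and 3.

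The pairs differed in the size of the contrast. For each of the 10 genes, the ratio of MOP over MODP was smallest in pair 2, which held for 36.2% of all tested genes and for 60.6% of the 493 genes that were at least 2-fold higher in MOP and past the test. The median log2 ratio of the 10 genes was 3.97 in pair 1, 1.92 in pair 2 and 4.27 in pair 3. Cd200r3 in MOP was 37.5 times its MODP level in pair 1, 8.02 times in pair 2 and 33.8 times in pair 3. Fcer1a was 19.6, 4.03 and 23.8 times its MODP level in pairs 1, 2 and 3, and Prss34 was 13.2, 3.56 and 19.9 times. The Il4 ratios of pairs 1 and 3 each rested on 1 MODP read, and their exact counting intervals ran from 6.56 to 1557 and from 6.35 to 1534.

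**Figure D2:**
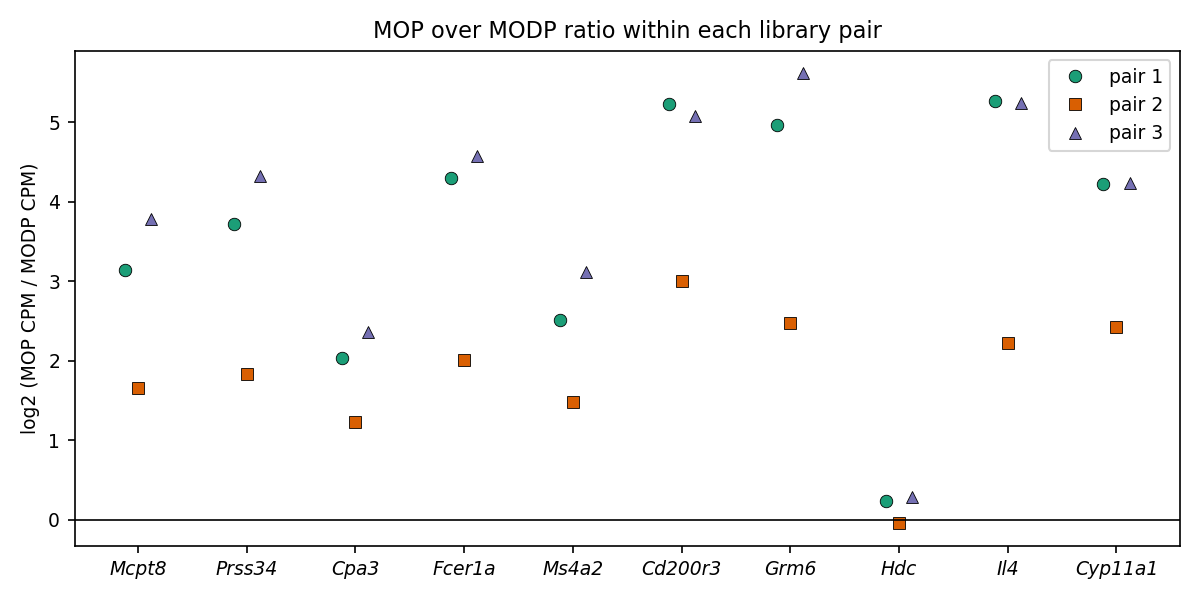
Log2 ratio of the MOP CPM over the MODP CPM within each library pair, for each of the 10 genes. Pair 2 lies below pairs 1 and 3 for each gene, and Hdc lies near 0 in all 3 pairs, at 0.24, -0.04 and 0.29.

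Pair 2 moved in opposite directions in the populations. Among MODP libraries, pair 2 was the highest for all 10 genes, which held for 39.0% of all tested genes. Among MOP libraries, pair 2 was the lowest for all 10 genes, which held for 33.3%. Both held together for 8.88% of all tested genes and for 29.6% of the 493 genes higher in MOP. The order was nearly a tie for some genes. Il4 in MOP stood at 2.62 CPM in pair 2 and 2.65 CPM in pair 3. Hdc in MOP stood at 190 CPM in pair 2 and 199 CPM in pair 1, and in MODP at 195 CPM in pair 2 and 189 CPM in pair 3. The summed neutrophil markers were highest in pair 2 of both populations, as were the eosinophil markers, at 344, 512 and 328 CPM in MOP pairs 1, 2 and 3 and at 233, 407 and 192 CPM in MODP pairs 1, 2 and 3. The part of these cells in the result was not tested. Without pair 2 of both populations the median log2 fold change of the 10 genes was 4.12. That of Cd200r3 was 5.15 and that of Prss34 was 4.02 (n = 2 libraries each). No error is given for these, because 2 libraries of a population measure the spread poorly. Cd200r3 had only 44 and 54 MODP reads in pairs 1 and 3. In the same fit Mcpt8, Grm6, Il4 and Cyp11a1 had log2 fold changes of 3.47, 5.24, 5.10 and 4.23. Leaving out MODP pair 2 alone gave 3.85 for Prss34, 5.01 for Grm6 and 5.05 for Il4.

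**Figure D3:**
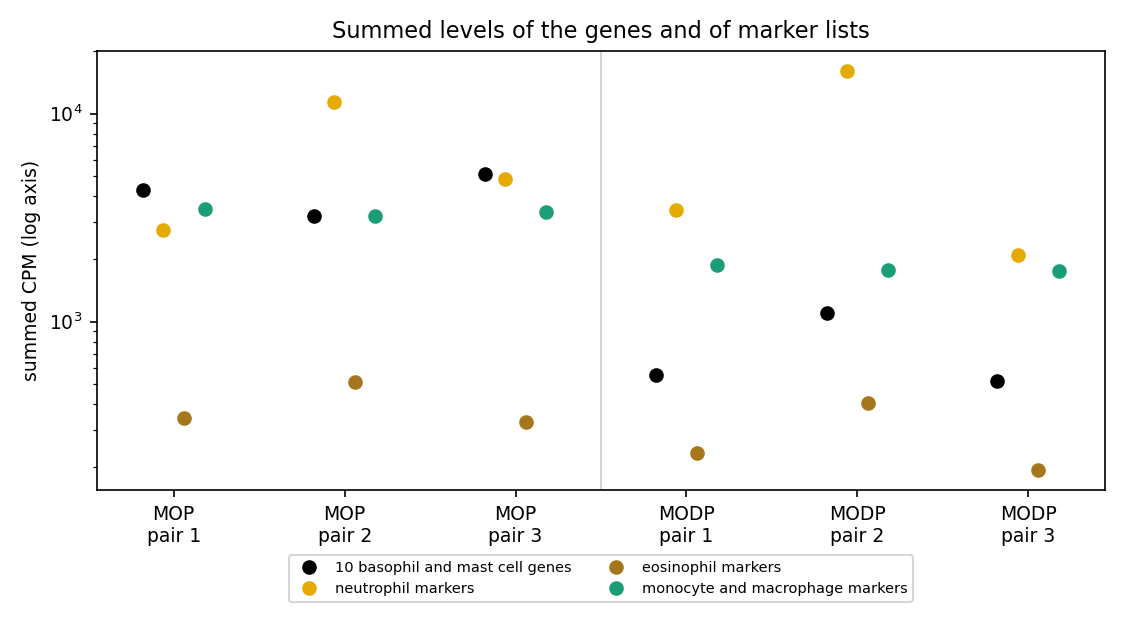
Summed CPM on a log axis in each library, for the 10 basophil and mast cell genes and for lists of 10 neutrophil, 10 eosinophil and 9 monocyte and macrophage markers. The 10 genes sum to 3231 to 5140.0 CPM in MOP and to 517 to 1095 CPM in MODP, while the neutrophil markers are highest in pair 2 of both populations.

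Genes outside the 10 that act in the same cells were then counted on 5 lists of 86 genes, of which 66 were tested. In MOP, 35 of the 66 rose, 5 fell and 26 missed the threshold in edgeR's quasi-likelihood test at an adjusted p of 0.05. Of all tested genes, 16.3% were higher in MOP and 14.9% were lower, against 53.0% and 7.58% of the 66. The lists were chosen with earlier results of these data known, so these shares describe the listed genes and are no independent test. The median log2 fold change of the 66 was 0.57. With the pair as a block 43 were higher and 8 lower, and without pair 2 of both populations 42 were higher and 6 lower.

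**Figure D4:**
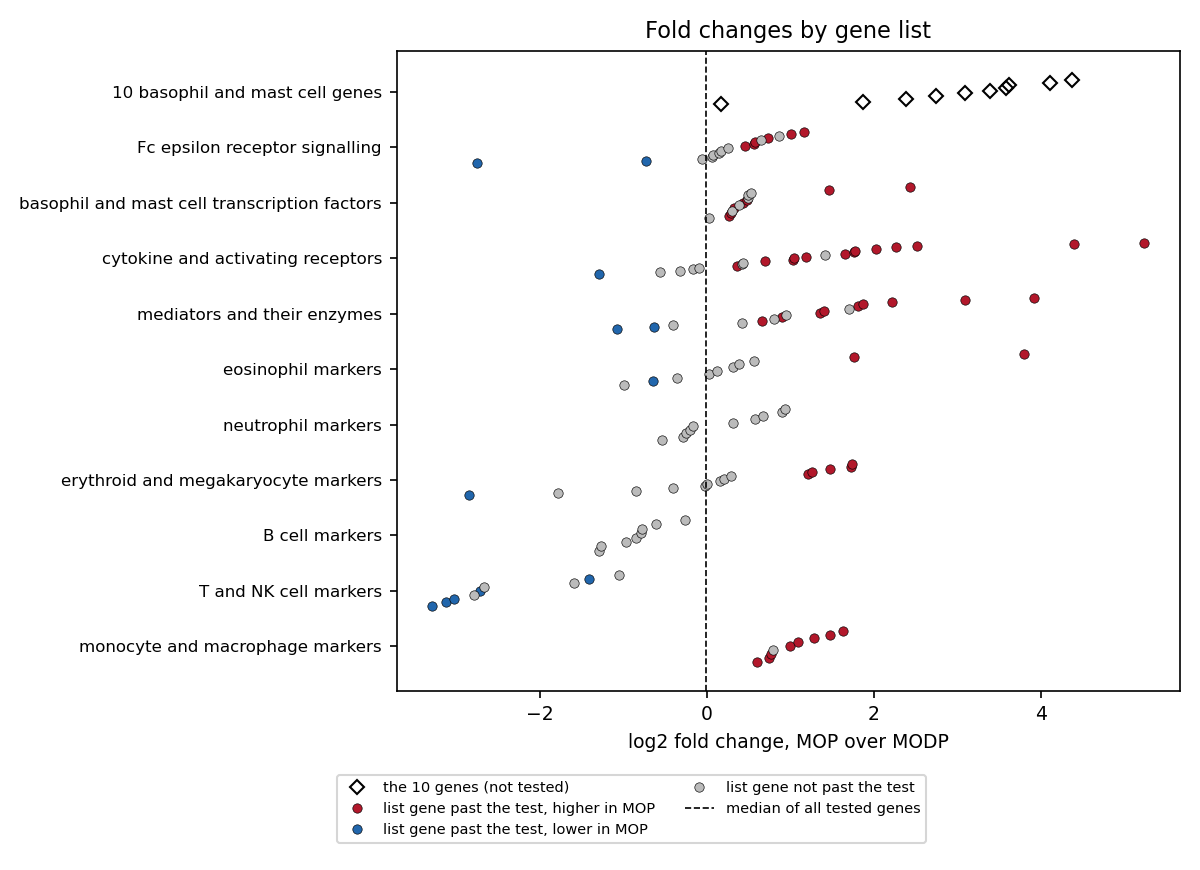
Log2 fold change of MOP over MODP for the 10 genes (open diamonds, not tested) and for the tested genes of each list, coloured by the outcome of edgeR's quasi-likelihood test. The dashed line is the median of all tested genes, at -0.01; the receptor list holds Hrh4 at 5.24, and no mature mast cell gene was abundant enough to be tested.

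Mature mast cell genes were almost unread. Of 11 chymase, tryptase and mast cell receptor genes on the list, 5 were in the table, namely Cma1, Mcpt1, Mcpt2, Mcpt4 and Tpsb2, and none passed the filter. Together they had 7 reads in the 3 MOP libraries and 5 reads in the 3 MODP libraries, with at most 3 reads of a gene in a library. The other 6, Cma2, Mcpt9, Tpsab1, Tpsg1, Mrgprb1 and Mrgprb2, were not analysed here. Kit, which mature mast cells retain and basophils lose, was lower in MOP by a log2 fold change of -1.29 ± 0.12 (SE, edgeR adjusted p = 0.00064). Kit was also among the sort and lineage genes above. In these bulk libraries its level cannot be assigned to mast cells or basophils.

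Transcription factors of the lineage were higher in MOP where they passed the test. Among the 13 tested ones 7 rose and 0 fell, beside 16.3% higher and 14.9% lower of all tested genes. The median log2 fold change of the 13 was 0.44. Gata2, required for basophil and mast cell development, stood at 449, 268 and 371 CPM in MOP and at 57.3, 89.4 and 54.2 CPM in MODP. The fitted log2 difference was 2.44 ± 0.30 (edgeR adjusted p = 0.0047, SE), but the call was lost with the pair as a block (edgeR adjusted p = 0.052; 1.8e-12 to 0.052 over the alternatives). Like the 10 genes, Gata2 was lowest in pair 2 among MOP libraries and highest in pair 2 among MODP libraries. That pattern held for 8.88% of all tested genes. On this list Ikzf1 shared it, whereas Gata1 (27.7, 39.1 and 28.1 CPM), Zfpm1, Tal1 and Lmo4 were highest in pair 2 among MOP libraries. Zfpm1 missed the threshold (edgeR adjusted p = 0.17), but passed it with the pair as a block (edgeR adjusted p = 0.0024). Gata1, a factor shared with the erythroid lineage, stood at 31.6 ± 6.43 CPM in MOP and 11.6 ± 2.73 CPM in MODP (SD, n = 3; edgeR adjusted p = 0.0028). Runx1, a factor of blood progenitors, rose by log2 0.48 ± 0.07 (edgeR adjusted p = 0.0022, SE), and Tal1, another, rose by 0.44 ± 0.09 (edgeR adjusted p = 0.0073, SE). Mitf, a mast cell factor, had 17.8 ± 1.38 CPM in MOP and 14.5 ± 0.785 CPM in MODP and missed the threshold (edgeR adjusted p = 0.057), but passed it with the pair as a block (edgeR adjusted p = 0.031). With the pair as a block 11 of the 13 were higher.

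Receptors for cytokines, histamine and complement were mostly higher in MOP. Among the 21 tested ones 13 rose, 1 (Kit) fell and 7 missed the threshold, with a median log2 difference of 1.04. Of all tested genes 16.3% were higher and 14.9% lower. Hrh4, the histamine H4 receptor gene, had 226 reads in MOP and 5 in MODP over all libraries, a ratio of 39.5 with an exact 95% counting interval of 16.7 to 123 (edgeR adjusted p = 0.00039). The shared β chain of the IL-3, IL-5 and GM-CSF receptors, Csf2rb, rose by log2 1.19 ± 0.10 (SE, edgeR adjusted p = 0.00039). Its mouse IL-3-specific relative Csf2rb2 stood at 140, 95.9 and 128 CPM in MOP and at 26.4, 28.9 and 20.7 CPM in MODP (edgeR adjusted p = 0.00057). These paralogs share 29.3% (Csf2rb) and 30.6% (Csf2rb2) of their 31-mers with other genes, so how reads were split between them is uncertain. Il1rl1, the IL-33 receptor gene, rose by log2 1.76 ± 0.17 (SE, edgeR adjusted p = 0.00038). Il3ra, the IL-3-binding chain, stood at 75.8 ± 8.57 CPM in MOP and 46.7 ± 2.80 CPM in MODP (SD, n = 3; edgeR adjusted p = 0.0014). Of the relatives of Cd200r3, Cd200r1 rose by log2 1.66 ± 0.27 (edgeR adjusted p = 0.0056, SE) and Cd200r4 by 2.03 ± 0.36 (edgeR adjusted p = 0.0040, SE). C3ar1, the receptor gene for complement C3a, stood at 10.3 ± 3.71 CPM in MOP and 0.457 ± 0.321 CPM in MODP (SD, n = 3; edgeR adjusted p = 0.0011). With the pair as a block 3 of the 21 were lower.

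Mediators and the enzymes that make or store them were mostly higher. Among the 16 tested ones 9 rose, 2 fell and 5 missed the threshold, with a median log2 difference of 1.15. Without a library in turn, 7 to 9 were higher. Of the 9, Osm (edgeR adjusted p = 0.049) and Ccl4 (edgeR adjusted p = 0.035) lost their calls in each of those fits. Both also lost them without pair 2 of both populations. The shares of all tested genes were 16.3% higher and 14.9% lower. Il6 stood at 18.1, 13.7 and 12.3 CPM in MOP and at 1.15, 1.41 and 0.421 CPM in MODP (edgeR adjusted p = 0.00039). Hgf, the hepatocyte growth factor gene, stood at 54.6 ± 12.6 CPM in MOP and 14.9 ± 2.14 CPM in MODP (SD, n = 3; edgeR adjusted p = 0.0011). Csf1, which encodes M-CSF, stood at 186, 113 and 134 CPM in MOP and at 17.8, 21.3 and 11.9 CPM in MODP (edgeR adjusted p = 0.0020). Slc18a2, the vesicular monoamine transporter gene that loads histamine into granules, rose by log2 1.36 ± 0.22 (SE, edgeR adjusted p = 0.0055). Ndst2, a sulfotransferase of heparin synthesis in mast cells, rose by log2 0.90 ± 0.08 (SE, edgeR adjusted p = 0.00035). Lower in MOP were Vegfa, at log2 -1.07 ± 0.20 (edgeR adjusted p = 0.0090, SE), and Srgn, the core protein gene of granule proteoglycans, at -0.63 ± 0.08 (edgeR adjusted p = 0.0013, SE). Alox5, the lipoxygenase that starts leukotriene synthesis, stood at 151, 146 and 169 CPM in MOP and at 33.5, 87.4 and 23.6 CPM in MODP and missed the threshold (edgeR adjusted p = 0.083), but passed it without pair 2 of both populations (edgeR adjusted p = 0.00080; 0.00037 to 0.21 over the alternatives).

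Among the 16 tested signalling genes downstream of FcεRI, 6 rose (37.5%), 2 fell (12.5%) and 8 missed the threshold, with a median log2 difference of 0.36. Of all tested genes 16.3% were higher and 14.9% lower, so the share that fell lay near that background. The γ chain gene Fcer1g stood at 287 ± 16.7 CPM in MOP and 142 ± 28.4 CPM in MODP (SD, n = 3), and its log2 difference was 1.01 ± 0.14 (edgeR adjusted p = 0.0031, SE), below those of the α and β chain genes. Lyn, the kinase that first acts on the receptor, rose by log2 0.73 ± 0.10, the adaptor gene Lcp2 by 0.56 ± 0.09 and the phosphatase gene Ptpn6 by 0.46 ± 0.06 (SE; edgeR adjusted p = 0.0013, 0.0025 and 0.0016). Syk, the kinase that binds the γ chain, missed the threshold at log2 0.17 ± 0.09 (edgeR adjusted p = 0.19, SE), but passed it with the pair as a block (edgeR adjusted p = 0.040) and without pair 2 of both populations (edgeR adjusted p = 0.017). The lower members were the phospholipase gene Plcg1, at log2 -0.73 ± 0.07, and the adaptor gene Clnk, at -2.75 ± 0.52 (SE; edgeR adjusted p = 0.00035 and 0.0055). Without MODP pair 2 alone or without pair 2 of both populations, 10 of the list were higher.

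Markers of other cells moved unevenly between the populations. Of all tested genes 16.3% were higher in MOP and 14.9% lower, and the eosinophil list, with 20% and 10%, lay near these shares. On the eosinophil list 2 of 10 rose, 1 fell and 7 missed the threshold, and its granule genes Epx and Prg2 stood at 63.3 ± 29.2 and 179 ± 89.0 CPM in MOP and at 51.1 ± 20.5 and 165 ± 72.9 CPM in MODP (SD, n = 3; edgeR adjusted p = 0.66 and 0.89), where Epx passed with the pair as a block (edgeR adjusted p = 0.0095). The higher ones were Ccr3, a chemokine receptor gene that basophils share, at log2 1.76 ± 0.33, and Alox15 at 3.80 ± 0.73 (SE; edgeR adjusted p = 0.0050 and 0.022), the call of Alox15 being lost with the pair as a block and in 4 of the 6 fits without a library (edgeR adjusted p up to 0.089). The lower one was the lectin gene Siglecf at log2 -0.64 ± 0.11 (SE, edgeR adjusted p = 0.0034). On the erythroid and megakaryocyte list 5 of 14 were higher and 1 was lower, with sums of 509 to 702 CPM in MOP and 184 to 601 CPM in MODP. Klf1, an erythroid factor gene, rose by log2 1.47 ± 0.19 (SE, edgeR adjusted p = 0.0015), and without MOP pair 1, MODP pair 1 or MODP pair 3 the list had 3 higher genes. The monocyte and macrophage list had 8 of 9 higher and summed to 3235 to 3496 CPM in MOP and 1754 to 1873 CPM in MODP. The neutrophil list had 0 of 10 past the test in either direction. No defining marker of these 4 lists was at 0 in a whole population, and their part in the results on the 10 genes was not tested.

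Position in the genome was compared through the 5 nearest protein-coding genes on each side of each of the 10 genes in GENCODE M21. Of these 100 neighbours 50 were tested, of which 14 rose in MOP (28%), 6 fell (12%) and 30 missed the threshold, beside 16.3% higher and 14.9% lower of all tested genes. Prss28, next to Prss34 in the tryptase cluster on chromosome 17, had 194 reads in MOP and 10 in MODP, a ratio of 16.9 with an exact 95% counting interval of 9.02 to 35.9 (edgeR adjusted p = 0.00035). Ctsg, the cathepsin G gene next to Mcpt8 on chromosome 14, stood at 932, 1046 and 1158 CPM in MOP and at 1712, 1815 and 1931 CPM in MODP, a log2 fold change of -0.80 ± 0.08 (SE, edgeR adjusted p = 0.00052). Mcpt4, on the other side of Mcpt8, had 0 reads in MOP and 1 read in MODP. Btla, an inhibitory receptor gene near Cd200r3 on chromosome 16, rose by log2 1.46 ± 0.10, Sept8 near Il4 by 1.53 ± 0.15, Ms4a6b near Ms4a2 by 0.71 ± 0.08 and Sppl2a near Hdc by 0.45 ± 0.06 (SE; edgeR adjusted p = 0.00020, 0.00054, 0.00070 and 0.0013). Il13, the cytokine gene beside Il4, had 9, 3 and 4 reads in MOP pairs 1, 2 and 3 and 1, 0 and 1 reads in MODP and was not tested.

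The genes whose pattern over the 6 libraries was most like the mean standardised pattern of the 10 were sought among 8956 other tested genes of at least 10 CPM. Among the most alike were Fbxo9, Milr1, S1pr4, Stag1, Maml1, Relt and Fgd4, with Pearson r of 0.994 to 0.999, a description over libraries that share the difference between the populations. Their log2 fold changes ran from 0.17 for Stag1 to 1.00 for S1pr4, smaller than those of the 10 genes other than Hdc. Milr1 stood at 67.2, 63.9 and 70.1 CPM in MOP and at 45.7, 50.9 and 44.8 CPM in MODP. Of the 10 genes themselves, Hdc had the lowest r with the mean pattern, at 0.763, and the others lay between 0.984 and 0.997.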

How the data were processed

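Raw read counts per Ensembl gene were used as the authors deposited them, 1 column for each of 3 MOP and 3 MODP libraries; per the submitters' processing notes TopHat 1.4 and HTSeq were used. No source used here names the genome build, annotation or strand setting. Libraries held 10701425 to 15892640 counts, and TMM factors were 0.983 to 1.03. Symbols came from GENCODE M21 (20840 of 22271 identifiers matched), as did exon lengths and neighbours. CPM values were computed here from the counts. Genes kept by filterByExpr were tested with edgeR 4.0.16 (quasi-likelihood, robust, group alone, Benjamini-Hochberg over all 12850 tested genes). Every edgeR adjusted p comes from this fit unless another is named. Each SE of a log2 fold change was the absolute fold change divided by the square root of the edgeR F statistic.

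The 10 genes, the 11 lists and the rules were chosen with earlier results of these data known. Of each list, up to 4 genes past the test by smallest adjusted p were named, or the most abundant where none passed; of the neighbours, up to 6. Of the genes most alike in pattern, 1 is not reported here. Any other list gene or neighbour in the text was picked with its values in view. The 10 genes shared at most 6.44% of their 31-mers with other genes.

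Deviations from the population means, over 9351 genes, correlated at 0.589, 0.607 and 0.507 between libraries with the same number in the column names, and at -0.449 to 0.0503 between others. These numbers were taken as pairs. List genes named in the text whose call a block by pair altered carry its value. Over all genes that block gave 2724 higher and 2544 lower. It gave 11 higher and 3 lower on the mediator list and 8 higher on the signalling list. The eosinophil list then had 2 lower, the erythroid and megakaryocyte list 4 higher and 2 lower, and the monocyte and macrophage list 9 higher. No library repeated another of its population within sampling noise (chi-square per degree of freedom 7.35 to 34.7). Alternatives were DESeq2 1.42.0 size factors and test, upper quartile scaling, other filters, both numberings as a block, each library left out, and pair 2 left out.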

Additional observations from a re-analysis of the deposited data

Results flagged for a closer look

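Hdc ran against the other pairs in pair 2: its log2 ratio of MOP over MODP was -0.0418 there, against 0.24 in pair 1 and 0.29 in pair 3. With 1 library of each population in a pair, this difference was not tested.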

How the results depend on the processing

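Each of the 10 genes kept its direction under the 14 alternatives, with log2 fold changes of 4.15 to 5.15 for Cd200r3, 2.79 to 4.02 for Prss34 and 0.08 to 0.27 for Hdc. The median of the 10, 3.25 as reported, was 4.12 without pair 2 of both populations and 2.93 to 3.94 without a library in turn. Over the 5 lists, 30 to 40 genes were higher and 5 or 6 lower without a library in turn; with the replicate block by column number 43 were higher and 8 lower, and by title number 36 and 7. Of the 35 higher genes, 34 kept their call with the block by column number and 30 to 33 without a library. Over all genes, 2095 were higher and 1913 lower, against 1281 to 2524 and 1036 to 2275 without a library in turn, the lowest counts without MOP pair 1 (1264 lower without MODP pair 1). Under upper quartile scaling the split was 1692 higher and 2452 lower. The cause of these changes was not tested. Beyond the lists named in the report, the block by column number moved the lower genes of the B cell list to 3 and of the T and NK list to 9, against 5 as reported and 3 without MOP pair 1 or MOP pair 3. Few MODP reads limit Il4, Grm6, Hrh4, Prss28 and C3ar1 (7, 1 and 10 reads of C3ar1 in MODP pairs 1, 2 and 3). Few MOP reads limit Clnk (7, 4 and 2 reads in MOP pairs 1, 2 and 3).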

Other observations

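The other genes were read against Mcpt8 within each library, a description with no test. Mcpt8 itself was higher in MOP, so a gene at nearly the same level in both populations, such as Hdc, also separates in this measure. The share of all tested genes that separate in this way was not computed. The ranges of Ms4a2, at 0.138 to 0.168 times in MOP and 0.156 to 0.260 times in MODP, and of Il4 overlapped. Prss34 had 2.47 to 2.68 times the CPM of Mcpt8 in MOP libraries and 1.76 to 2.20 times in MODP libraries. Fcer1a had 0.0923 to 0.1001 times in MOP and 0.0450 to 0.0728 times in MODP, and Cd200r3 had 0.103 to 0.150 times in MOP and 0.0354 to 0.0456 times in MODP. Cpa3 ran the other way, at 0.273 to 0.302 times in MOP and 0.408 to 0.772 times in MODP, as did Hdc, at 0.203 to 0.263 times in MOP and 0.855 to 2.27 times in MODP. Of 9 T and NK cell markers 5 were lower in MOP by edgeR's quasi-likelihood test, 0 were higher and 4 did not pass, beside 14.9% lower of all tested genes; without MOP pair 1 or MOP pair 3 the lower count was 3, and without pair 2 of both populations it was 8. Among the 5, Nkg7 stood at 64.9, 99.1 and 92.2 CPM in MOP and at 203, 237 and 239 CPM in MODP (edgeR adjusted p = 0.0024). The others rested on few MOP reads. In MOP pairs 1, 2 and 3, Cd3e had 2, 12 and 5 reads and Cd3g had 2, 4 and 4. Ncr1 had 2, 8 and 3 reads there, and Klrb1c had 1, 18 and 8. The call of Klrb1c was lost whichever MOP library was left out. Of 8 B cell markers 0 passed the test in either direction, and 3 were lower with the pair as a block.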
